A study of Mus musculus with 2 samples.

Results

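The enzymes and the coactivator with which liver makes glucose from lactate and amino acids were examined as a set of 10 genes: Pcx, Pck1, Fbp1, G6pc, Got1, Gpt, Gpt2, Sds, Prodh and Ppargc1a. They were chosen by symbol or synonym among the non-control probes of both arrays, with earlier results of these data known. The shares of all genes given beside the counts below are therefore descriptions and no test. The 10 genes had 11 probes, of 22803 named genes and 39429 probes in all. Ppargc1a had 2 probes, and each of the others had 1.

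Liver RNA of C57BL/6 mice was hybridised to 2 Agilent 2-colour arrays, with wild-type mice on 1 and mice carrying a transgene for AID on the other. AID is activation-induced cytidine deaminase. On each array the Cy5 channel held liver RNA of that genotype after 6 months of thioacetamide, a liver toxicant, in the drinking water, and the Cy3 channel held liver RNA of the same genotype without treatment. The 4 livers were thus untreated wild-type, thioacetamide-treated wild-type, untreated AID transgenic and thioacetamide-treated AID transgenic, each in 1 channel. The promoter of the transgene, the age and sex of the mice, and whether a channel held 1 animal or a pool are not stated by the labels. With 1 array per genotype and no dye swap there was no replicate and no test: dye and treatment cannot be told apart within an array, nor can genotype and animal between arrays.

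Gluconeogenesis runs from pyruvate or oxaloacetate to free glucose. Pyruvate from lactate or alanine is carboxylated in mitochondria, the oxaloacetate becomes phosphoenolpyruvate in the cytosol, and the remaining steps reverse glycolysis except at fructose bisphosphate and glucose phosphate, which have phosphatases of their own. Amino acids enter through transaminases, dehydratases and oxidases. In fasting, glucagon acts through cyclic AMP on the Pck1 and G6pc promoters, with Ppargc1a as an inducible coactivator, and insulin opposes it.

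The promoters are shown because Pck1 and Ppargc1a are textbook targets of the cyclic AMP pathway, and Got1 because it had the lowest ratio of the set on the AID transgenic array. Each is the 250 bases before the RefSeq start in GRCm38.p6, 5′ to 3′, with capitals on the matches to a cyclic AMP response element motif.
Pck1 promoter, chr2:173152823-173153072 (plus strand): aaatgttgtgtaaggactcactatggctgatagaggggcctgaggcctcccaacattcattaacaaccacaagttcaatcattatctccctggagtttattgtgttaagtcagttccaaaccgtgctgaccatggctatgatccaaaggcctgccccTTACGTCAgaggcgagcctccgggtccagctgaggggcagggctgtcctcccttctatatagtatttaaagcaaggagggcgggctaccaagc
Ppargc1a promoter, chr5:51567726-51567975 (minus strand): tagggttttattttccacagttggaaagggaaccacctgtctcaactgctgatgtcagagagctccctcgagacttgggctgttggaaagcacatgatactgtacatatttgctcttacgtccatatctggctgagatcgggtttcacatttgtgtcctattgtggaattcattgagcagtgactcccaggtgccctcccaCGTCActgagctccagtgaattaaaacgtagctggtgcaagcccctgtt
Got1 promoter, chr19:43524606-43524855 (minus strand): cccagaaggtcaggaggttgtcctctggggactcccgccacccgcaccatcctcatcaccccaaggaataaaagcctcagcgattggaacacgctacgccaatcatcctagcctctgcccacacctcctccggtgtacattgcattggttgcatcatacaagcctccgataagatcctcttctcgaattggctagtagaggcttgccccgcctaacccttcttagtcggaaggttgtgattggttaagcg
The full-length element form TTACGTCA lay from 93 to 86 bases before the Pck1 start, and 0.447% of 32851 promoter windows of this length held it on either strand. The half-site TGACG, which overlaps it, was found in Pck1 and, from 49 to 45 bases before the start, in Ppargc1a, on the minus strand in both, where it reads CGTCA. It occurred in 17.8% of all windows. The G6pc window, not shown, held neither of these forms. Variant forms of the element were not searched, so a window without these matches may still hold one. None of the 9 windows of 8 members held the palindrome TGACGTCA (1.55% of all windows), the forkhead motif GTAAACA (3.17%), the glucocorticoid receptor core ACANNNTGT (5.84%) or the C/EBP motif TTGCNNAA (9.56%). These are letter matches on both strands, and Sds and Gpt were not matched to a window.

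The probes read 60 bases each. Those of Sds, which had the lowest ratio of the set on the wild-type array, and Gpt, which had one of the smallest on both, are shown as the sequences the array read, with no capitals since no motif was marked.
Sds probe: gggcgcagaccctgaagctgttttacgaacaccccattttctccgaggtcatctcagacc
Gpt probe: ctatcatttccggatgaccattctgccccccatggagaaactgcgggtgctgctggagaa
In mm9 coordinates of the file headers, the Sds probe lay at chr5:120933105-120933164 on the plus strand, and the Gpt probe at chr15:76529767-76529897 on the plus strand. The Pck1 probe lay at chr2:172984307-172984366 on the plus strand and the Got1 probe at chr19:43574278-43574337 on the minus strand, and the Ppargc1a probes at chr5:51848928-51848987 and chr5:51846926-51846985 on the minus strand. The Gpt probe covered 131 genomic bases with 60 bases of sequence, so its match to the genome has a gap. A gene annotation of that build was not used here, so exon and UTR are not stated.

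Levels below are log2 intensities after normalization, given for the untreated wild-type, treated wild-type, untreated AID transgenic and treated AID transgenic liver in that order. The ratio is log2 treated over untreated. Errors printed with ± on a treatment ratio are those the scanner software gave for its own log2 ratio of that spot, and on a difference between the arrays they combine the errors of both. They are technical, do not cover mice, and were not recomputed for the ratios printed here. For 399 probes spotted 10 times, the median SD between spots was 0.07 for both arrays. All 11 probes were well above background and unsaturated in all 4 channels.

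Of 10 hepatocyte markers 9 were measured, all well above background in the 4 livers. Their summed normalized intensity was 777293 and 806543 in the untreated and 620698 and 629800 in the treated livers, wild-type first, and 1 of 9 was at least 2-fold lower in wild-type and 2 in AID transgenic (list medians -0.26 and -0.35). The hepatocyte ratios ran from -1.79 (Apoa1) to 0.60 (Alb) in wild-type and from -1.84 (Cyp2e1) to 0.17 (Alb) in AID transgenic. In bulk tissue, fewer hepatocytes and less RNA per hepatocyte cannot be told apart. The summed macrophage markers (7 genes) were 12799 and 15197 on the wild-type array and 12654 and 28798 on the AID transgenic array, untreated first, and the 8 stellate markers 15364 and 18999 against 22281 and 12233. All these sums are on a linear scale, so the brightest genes weigh most. Among the stellate markers that gene was Dcn, at log2 levels of 13.69, 13.86, 14.20 and 13.28. Gene by gene, macrophage ratios ran from -0.16 to 0.71 in wild-type and from 0.00 to 1.48 in AID transgenic. Stellate ratios ran from -0.32 to 1.60 and from -1.89 to 0.06. Summed proliferation markers (5 genes) were 512 and 1459, then 509 and 859. The Y-linked transcripts Ddx3y, Eif2s3y and Uty were well above background in 3 of the 4 livers and not in the treated wild-type liver, the one liver where Xist was well above background. On the wild-type array the ratios were -5.27 for Eif2s3y, -4.60 for Ddx3y, -0.56 for Uty and 2.67 for Xist. The AID transgenic ratios of Eif2s3y, Ddx3y and Uty were -0.05, -0.11 and -0.05. A difference in sex between the channels and treatment therefore cannot be told apart in any ratio of the wild-type array. The part of these shifts in the ratios below was not tested.

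Of the enzymes that are specific to gluconeogenesis, Pck1 was lower in the treated liver of both genotypes, and Fbp1 had nearly equal levels in the 2 channels of each array. Pck1, the cytosolic enzyme that makes phosphoenolpyruvate from oxaloacetate, had levels of 16.75, 15.40, 16.78 and 15.24. Both untreated livers lay above both treated livers. Its ratio was -1.34 ± 0.24 in wild-type and -1.55 ± 0.26 in AID transgenic, or 2.54-fold and 2.92-fold lower. The treated livers thus kept 39.4% and 34.3% of the level of their untreated partner.

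Pcx encodes pyruvate carboxylase, the mitochondrial entry for lactate and alanine carbon. Its levels were 14.77, 13.95, 14.48 and 13.92, again with both untreated livers above both treated ones. The ratios of -0.82 ± 0.22 and -0.56 ± 0.21 (1.76-fold and 1.47-fold lower) did not reach the 2-fold rule.

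Fbp1 encodes the phosphatase that returns fructose bisphosphate to fructose phosphate. Its levels of 16.95, 16.74, 16.66 and 16.67 spanned the narrowest range of the 10 genes on this scale. The ratios were -0.20 ± 0.21 and 0.01 ± 0.20. The scanner software's own ratios, to which these errors belong, were -0.32 and -0.14.

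G6pc, the catalytic subunit of the phosphatase that releases free glucose, had levels of 14.78, 13.80, 15.14 and 14.60. The treated wild-type liver was the lowest, and the treated AID transgenic liver lay 0.18 below the untreated wild-type one. The ratio was -0.98 ± 0.23 in wild-type, just under the 2-fold rule at 1.98-fold lower, and -0.54 ± 0.21 in AID transgenic.

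Among the enzymes that feed amino acid carbon into the pathway, Sds and Prodh were at least 2-fold lower in the treated liver of both genotypes, Got1 in AID transgenic, and the alanine transaminases Gpt and Gpt2 in neither. Sds, the dehydratase that turns serine into pyruvate, had levels of 13.60, 12.11, 13.70 and 12.39. The untreated livers again lay above the treated ones. Its ratios were -1.49 ± 0.25 and -1.32 ± 0.24 (2.81-fold and 2.49-fold lower).

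Prodh, proline dehydrogenase, starts the breakdown of proline toward glutamate. Its levels were 14.43, 13.05, 13.91 and 12.89, with both treated livers below both untreated ones. The ratios were -1.38 ± 0.24 and -1.02 ± 0.22 (2.61-fold and 2.02-fold lower). The AID transgenic value lay 0.02 past the 2-fold rule.

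Got1 is the cytosolic aspartate transaminase, which converts aspartate to oxaloacetate outside the mitochondrion. Its levels were 14.61, 13.63, 15.01 and 13.14, so the AID transgenic array held both the highest and the lowest of the 4. The ratio was -0.98 ± 0.22 in wild-type (1.98-fold lower) and -1.87 ± 0.27 in AID transgenic (3.66-fold lower). In AID transgenic, 27.3% of the untreated level was left, and Got1 ranked 25th from the lowest of 16708 genes.

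Gpt and Gpt2 encode the cytosolic and the mitochondrial alanine transaminase, which exchange alanine and pyruvate. Gpt had levels of 14.32, 14.12, 14.17 and 13.84 and ratios of -0.21 ± 0.21 and -0.33 ± 0.21. Gpt2 had levels of 12.82, 12.50, 12.43 and 11.96 and ratios of -0.32 ± 0.21 and -0.47 ± 0.21. For both genes the treated liver was the lower on each array, by 1.15-fold to 1.39-fold.

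Ppargc1a, the coactivator PGC-1 alpha that is induced in fasted liver, was dim, and its 2 probes disagreed in size after normalization. The brighter probe had levels of 9.30, 8.89, 10.03 and 8.73 and ratios of -0.42 ± 0.21 and -1.30 ± 0.25. The other, at 6.46, 6.26, 6.63 and 6.12, had ratios of -0.20 ± 0.39 and -0.51 ± 0.49. Both probes were highest in the untreated and lowest in the treated AID transgenic liver. The mean of the probes gave -0.31 in wild-type and -0.91 in AID transgenic, with an SD between probes of 0.15 and 0.56. The brighter probe alone passed the 2-fold rule in AID transgenic, and the mean did not. Ratios of probes this dim are shrunk by the background offset, and with an offset of 0 the mean of the probes was -1.37 in AID transgenic. The scanner software's own ratios, to which the errors belong, were -0.53 and -1.51 for the brighter probe. They were -0.79 and -1.90 for the other, so on that scale the dimmer probe had the larger drop on both arrays.

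**Figure D1:**
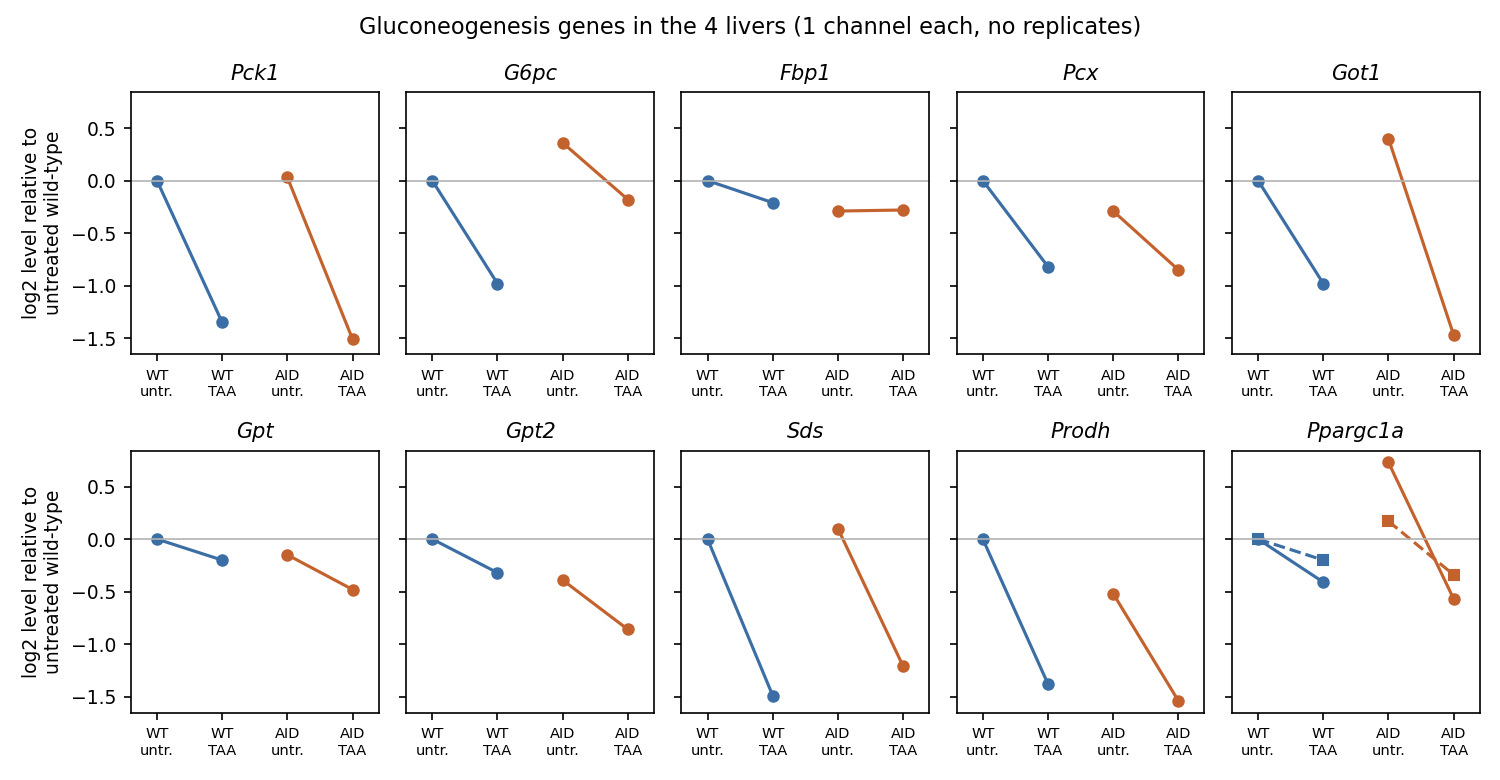
Log2 level of each gene relative to the untreated wild-type liver (y axis) in the 4 livers (x axis; WT, wild-type; AID, AID transgenic; untr., untreated; TAA, thioacetamide-treated), 1 channel value per point, with lines joining the 2 channels of an array and squares for the dimmer Ppargc1a probe. Pck1, Sds and Prodh drop on both arrays, Got1 most on the AID transgenic array (-1.87), and Fbp1 is nearly level.

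In wild-type, 3 of the 10 genes (Sds, Prodh and Pck1) were at least 2-fold lower and 0 higher, where 1.64% of 16673 measured genes were lower and 1.86% higher. G6pc and Got1 lay just outside at -0.98. All 10 ratios were below 0, as were 45.3% of those of all genes. The median of the 10 was -0.90, beside 0.03 over all genes. These genes are mostly bright, and 9 of them, all but Ppargc1a, had a mean log2 level of 12 or more. Of 1738 genes at such levels, 5.18% were at least 2-fold lower and 2.42% higher.

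In AID transgenic, 4 of 10 (Got1, Pck1, Sds and Prodh) were at least 2-fold lower and 0 higher, where 0.946% of 16708 genes were lower and 1.21% higher, and 2.88% of the bright genes were lower and 2.30% higher. The nearest gene outside was Ppargc1a at -0.91. Of the 10 ratios, 9 were below 0, and Fbp1 was at 0.01. The median was -0.73, beside 0.03 over all genes. These counts do not involve the treated wild-type liver, in which the Y-linked transcripts were not well above background.

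On the wild-type array Sds, Prodh and Pck1 were lowest and differed among themselves by less than the technical error of one spot. G6pc, Got1 and Pcx followed within 0.16 of one another, and Gpt2, Ppargc1a, Gpt and Fbp1 lay between -0.32 and -0.20. On the AID transgenic array the order was Got1, Pck1, Sds, Prodh, Ppargc1a, Pcx, G6pc, Gpt2, Gpt and Fbp1. Pcx and G6pc, at -0.56 and -0.54, were not separated there. The orders differed at the low end, where Got1 was lowest in AID transgenic and Sds in wild-type, and Fbp1, Gpt and Gpt2 were among the 4 smallest in size on both arrays.

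**Figure D2:**
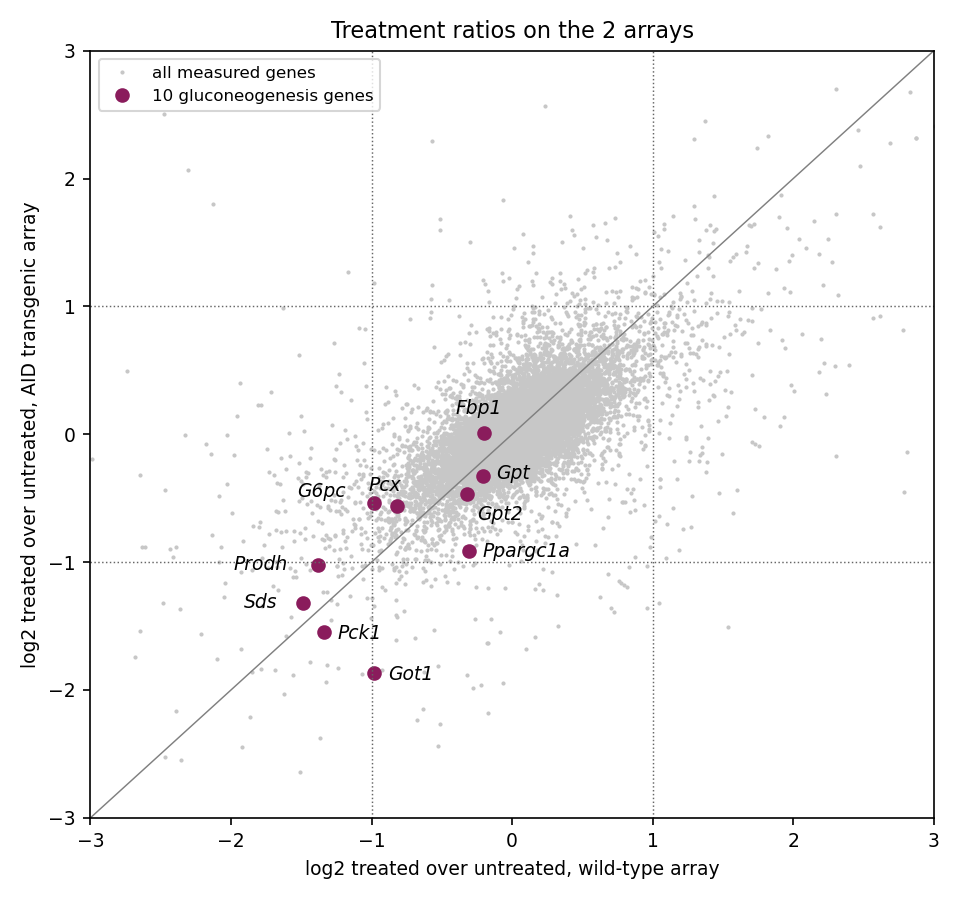
Log2 treated over untreated on the wild-type array (x axis) against the AID transgenic array (y axis), 1 grey point per measured gene and 1 purple point per gluconeogenesis gene, with dotted lines at 2-fold, a diagonal of equal ratios, and 36 genes outside the axes. Pck1, Sds and Prodh lie in the corner lower on both arrays, Got1 lies below the diagonal, and Fbp1 is near 0 on both.

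The signs and counts changed with how the 2 dyes were scaled. As scanned, 7 of the 10 genes were brighter in the treated than in the untreated channel of the wild-type array: G6pc had a mean signal of 23250 in Cy5 against 19640 in Cy3, and Fbp1 176292 against 81344. Pck1, Sds and Prodh had the lower Cy5 signal even so, for instance 7086 against 8800 for Sds. On the AID transgenic array 6 of the 10 were brighter in Cy5, while Got1 had 12716 in Cy5 against 20401 in Cy3. Loess sets the centre of the ratios to 0 at each intensity, whatever the source of the channel difference. Centring each array on its median in place of loess left the 1738 bright genes at a median of 0.71 in wild-type and 0.70 in AID transgenic, beside 0.35 and 0.34 over all measured genes. The members shifted with them: Pck1 had -0.50 and -0.75, Sds -0.77 and -0.60, Prodh -0.63 and -0.30, and Got1 -0.21 and -1.13.

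With median centring, 0 of 10 genes reached 2-fold in wild-type and 1, Got1, in AID transgenic, and Fbp1, Gpt and Gpt2 had ratios above 0 on both arrays, as did G6pc and Pcx in AID transgenic. Of all measured genes, 0.612% in wild-type and 0.317% in AID transgenic were at least 2-fold lower with median centring. Relative to all genes under that centring, 1 member in wild-type (Sds) and 3 in AID transgenic (Got1, Pck1 and Ppargc1a) were at least 2-fold lower. The shares of all genes were 1.25% and 0.646% there. Relative to the bright genes, 3 and 5 members were, but so were 7.76% and 7.16% of all genes. Under the last scale Sds had -1.47 and -1.31, Pck1 -1.21 and -1.45, and Fbp1 -0.04 and 0.12. The share of all 2-fold calls that were higher was 53.1% in wild-type and 56.2% in AID transgenic, and 94.4% and 96.2% with median centring. It was 65.8% and 69.7% with a background offset of 0, and 72.5% and 76.6% with the scanner's processed signals.

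**Figure D3:**
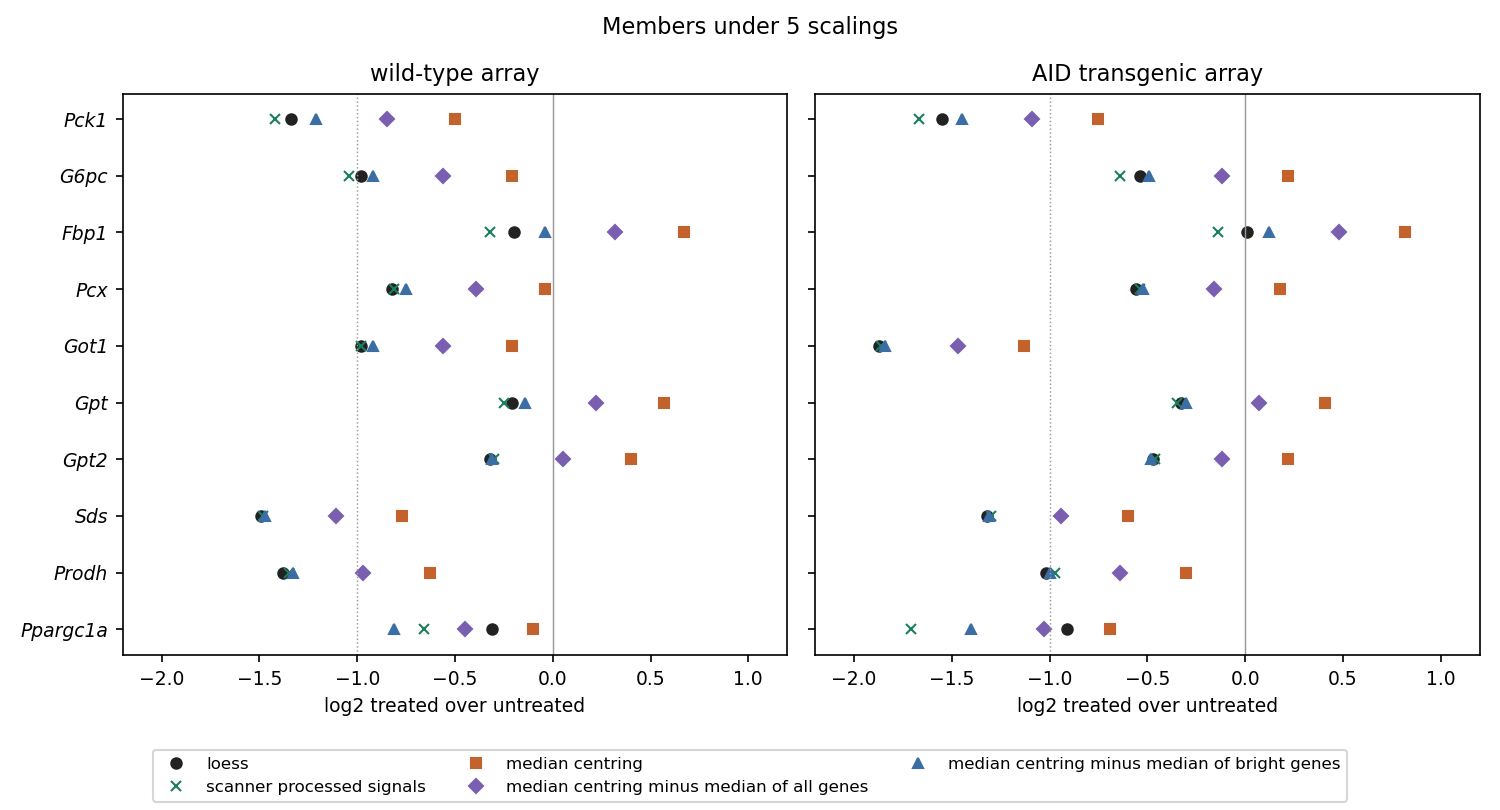
Log2 treated over untreated (x axis) of the 10 genes (y axis) on each array under 5 scalings, 1 symbol per scaling, with lines at 0 and at 2-fold lower. Median centring moves every gene to the right, and for the bright genes subtracting the median of bright genes returns values close to those of loess, as for Sds at -1.47 and -1.49 in wild-type.

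Whether the treatment ratios of the genotypes differ was asked by subtracting the wild-type from the AID transgenic log2 ratio. None of the 10 differences reached 2-fold, where 1.05% of 17120 genes were lower and 0.929% higher. Got1 had the lowest difference, -0.89 ± 0.35, followed by Ppargc1a at -0.60 ± 0.35, whose 2 probes had an SD of 0.41. G6pc had the highest, 0.44 ± 0.31, and Prodh had 0.36 ± 0.33. The other 6 lay between -0.20 and 0.26, within their technical errors. The median difference was 0.03, with 5 genes below 0 and 5 above.

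The direct comparison of the genotypes, 1 channel across the arrays, also gave 0 genes at 2-fold in either state. Among untreated livers, 0.294% of 14309 genes were at least 2-fold lower in AID transgenic and 0.307% higher. Ppargc1a, Got1 and G6pc were the highest members there, at 0.45, 0.40 and 0.36, and Prodh and Gpt2 the lowest, at -0.52 and -0.39. Pck1 had 0.04 and Sds 0.10, so the untreated livers were nearly level for these genes.

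Among treated livers, 0.755% of 17092 genes were lower in AID transgenic and 0.731% higher. G6pc stood highest at 0.80, or 1.74-fold, and Gpt2 and Got1 lowest at -0.54 and -0.49. The Got1 difference between the treatment ratios was therefore made of a higher untreated (0.40) and a lower treated value (-0.49) in AID transgenic. This split depended on the normalization between arrays, and without it the values were 0.20 and -0.69. Ppargc1a had 0.45 in the untreated livers, with an SD of 0.39 between its 2 probes and 0.72 by the brighter one, and -0.15 in the treated ones. G6pc was higher in AID transgenic in both states. All comparisons with the treated wild-type liver hold the difference in sex-linked transcripts, and so a possible difference in sex.

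The pattern over the 4 livers was compared by the Euclidean distance between the 4 levels of each gene after centring on the gene's own mean. Within the set, Fbp1 and Gpt (0.24), Gpt and Gpt2 (0.28), Pck1 and Sds (0.32) and Pck1 and Got1 (0.34) were the closest pairs. Among 13456 other genes well above background in all livers, those most like Pck1 were Tpm2, a tropomyosin gene (distance 0.09), Irx1 and the uridine phosphorylase gene Upp2 (both 0.19), BC024139 (0.23) and Gpcpd1 (0.24). Upp2, for example, had ratios of -1.44 and -1.78. All 5 were dimmer than Pck1. Tpm2 had levels of 8.38, 7.10, 8.36 and 6.91, and Irx1 of 7.83, 6.59, 7.74 and 6.41, where the background offset shrinks ratios. With 4 values per gene and no replicates the distance ranks likeness on these normalized levels and no more.

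Genes of the same routes that are not among the 10 were described by lists, under loess only. Of all measured genes, 1.64% in wild-type and 0.946% in AID transgenic were at least 2-fold lower, and 1.86% and 1.21% higher. Of the bright genes, 5.18% and 2.88% were lower. Median centring left bright genes higher (medians 0.71 and 0.70) than all genes (0.35 and 0.34), and the shift of lists that differ in brightness was not tested. Of 29 other genes listed under amino acid entry, 6 were at least 2-fold lower in wild-type and 7 in AID transgenic, and 0 were higher, with list medians of -0.58 and -0.60. Oat, the ornithine aminotransferase, was lowest on both arrays at -2.36 and -2.54. Next came the asparagine synthetase gene Asns at -1.92 in wild-type (-0.83 in AID transgenic), and the amino acid transporter gene Slc38a2 at -1.30 in AID transgenic. At the other end, the glutamate dehydrogenase gene Glud1 had 0.32 and 0.49 and the aspartate-glutamate carrier gene Slc25a12 0.48 and 0.36.

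Asns was the one gene of this list to differ 2-fold between the treatment ratios, at 1.09. It was also higher in AID transgenic in the untreated (1.51) and the treated livers (2.60). Its levels were 8.36, 6.44, 9.87 and 9.04. The treated wild-type level of 6.44 was dim, and the wild-type ratio, the difference of 1.09 and the 2.60 all rest on that channel. That is also the liver in which the Y-linked transcripts were not well above background. It was singled out after its values were seen.

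The lactate and pyruvate list, whose carbon enters the pathway through Pcx, had medians of 0.04 and 0.01 over 16 genes, close to those of all genes. None was 2-fold lower. Pdk4, a kinase that shuts off pyruvate dehydrogenase and so spares pyruvate, was the highest at 2.48 and 2.10, and the lactate dehydrogenase subunit gene Ldhb followed at 1.55 and 0.96. The kinase gene Pdk2 and the dicarboxylate carrier gene Slc25a10 were lowest, at -0.96 and -0.95 in wild-type and -0.80 and -0.52 in AID transgenic.

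Of the 11 genes of the reversible steps from triose to glucose and of glucose release, 1 was 2-fold lower in wild-type and 0 in AID transgenic, with medians of 0.03 and 0.21. The lower one was Slc37a4, the transporter that brings glucose phosphate to G6pc, at -1.01 in wild-type and -0.61 in AID transgenic. It had the lowest ratio of its list on both arrays, and its partner G6pc had -0.98 and -0.54. None of the 4 glycerol entry genes reached 2-fold on either array, with medians of -0.38 and 0.08.

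**Figure D4:**
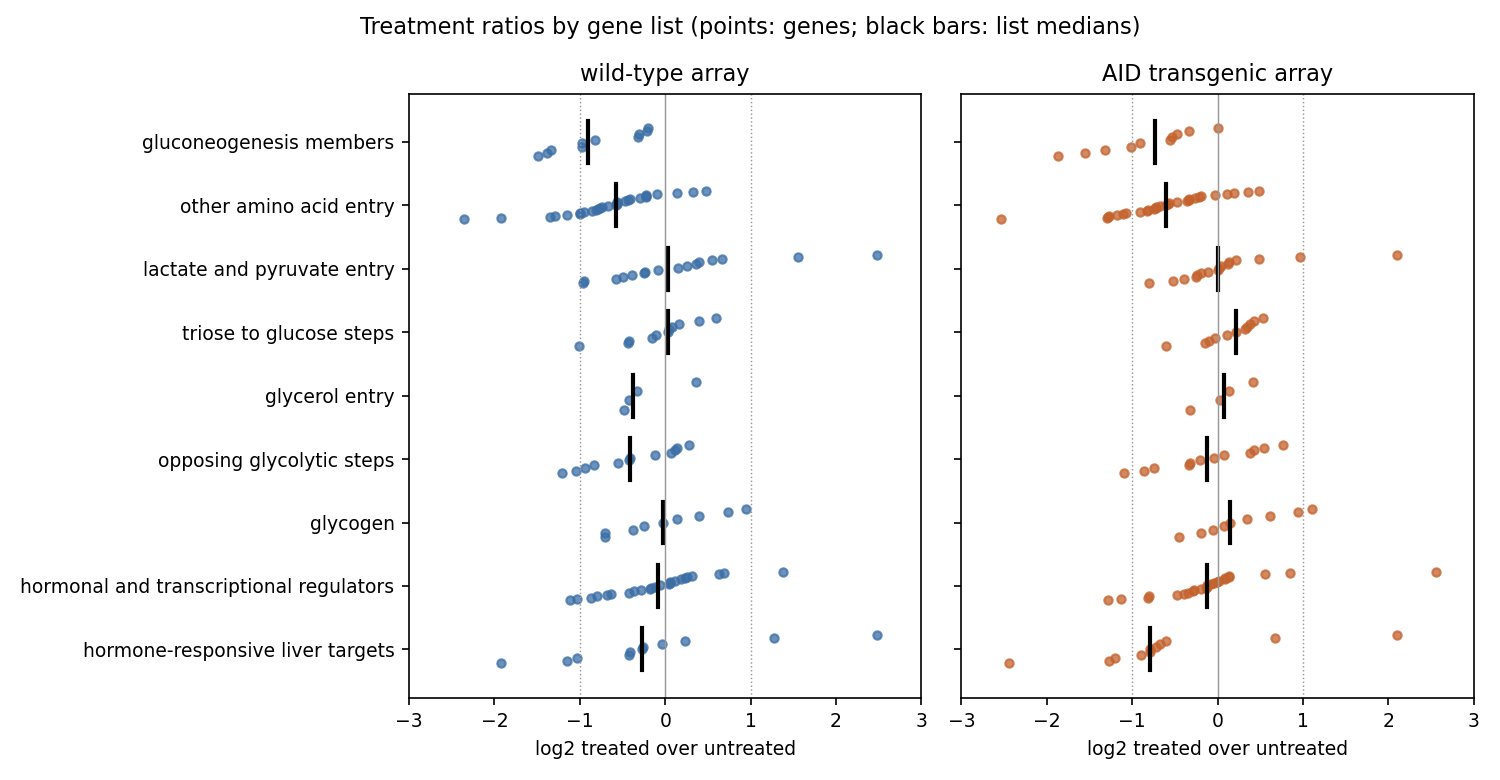
Log2 treated over untreated (x axis) of the genes of each list (y axis), 1 point per gene, for the wild-type and the AID transgenic array, with black bars at list medians and lines at 0 and 2-fold. Under loess, the gluconeogenesis genes (medians -0.90 and -0.73) and the other amino acid genes (-0.58 and -0.60) lie to the left. The lactate and pyruvate list is centred near 0. Other scalings are not shown.

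Regulators of the pathway went both ways. Of 24 transcriptional and hormonal regulators, 2 were at least 2-fold lower and 1 higher on each array, with medians of -0.09 and -0.13. Foxo1, the insulin-inhibited activator of G6pc, was lower on both at -1.03 and -1.28. The other lower regulator was Cebpa at -1.12 in wild-type and Cebpb at -1.13 in AID transgenic, both C/EBP factors. The higher one was the pseudokinase gene Trib3 at 1.38 in wild-type and the orphan receptor gene Nr4a1, which is induced by cyclic AMP, at 2.56 in AID transgenic. Nr4a1 had 0.23 in wild-type and Trib3 -0.29 in AID transgenic.

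Of 11 hormone-responsive targets, 3 were lower and 2 higher in wild-type, and 3 lower and 1 higher in AID transgenic, with medians of -0.27 and -0.79. Lpin1, a phosphatidate phosphatase induced in fasting, was lowest at -1.92 and -2.44, with an SD of 1.25 between its 2 probes in AID transgenic, followed by the tyrosine aminotransferase gene Tat at -1.15 and -1.27. Igfbp1, an insulin-repressed gene, had 1.27 in wild-type and -0.72 in AID transgenic, and it was 1.73 higher in AID transgenic among untreated livers. Fasting-induced genes thus stood on both sides of 0, with Pdk4 high and Pck1, Lpin1 and Tat low on both arrays. The labels do not state feeding or the time of sampling.

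None of the opposing glycolytic genes was at least 2-fold higher. Of 12, 2 were at least 2-fold lower in wild-type, Pfkfb1 at -1.21 and the liver pyruvate kinase gene Pklr at -1.04. In AID transgenic 1 was, Pfkfb1 at -1.10, while Pklr had 0.38. The list medians were -0.41 and -0.13. Of 9 glycogen genes, 0 reached 2-fold in wild-type and 1, the glycogen targeting subunit gene Ppp1r3c at 1.10, was higher in AID transgenic.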

How the data were processed

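Deposited scanner output of 2 arrays was used. The authors' mean signals and background medians are intensity values, and the processed signals are intensity values corrected and dye-normalized by the scanner software, per the file headers. Deposited log ratios are log10 of Cy5 over Cy3, and their deposited error is a score from the software's error model, printed here in log2 units after ±. The deposited value table equalled the log10 ratios on all 44397 features of each array. The file headers name Feature Extraction 10.7.3.1. The version in the submitters' processing notes is 10.5.1.1.

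In R 4.3.3 with limma 3.58.1, signals were corrected by normexp (offset 50) and normalized by loess within arrays, with control and outlier spots at weight 0. Aquantile normalization set levels across arrays. Spots were averaged per probe and probes per gene. Tested on simulated data of this layout, a treated over untreated log2 ratio of -2 came back as -1.99 and -1.98 on the 2 simulated arrays at log2 levels of 12 or more and as -1.67 and -1.63 below (100 probes each), because the offset shrinks dim ratios. Few spots were changed, equally up and down, so the simulation cannot show whether loess removes a real shift of bright genes. Of 39429 probes, 30180 were named, 26055 of them by RefSeq accession (GRCm38.p6). The 2-fold rule asked for a log2 value of 1 or more in either direction, with a probe well above background in at least 1 channel that entered. The 2 highest and 2 lowest genes of each list on each array were open to naming, with genes counted at 2-fold added. Members and lists were chosen with earlier results of these data known.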

Additional observations from a re-analysis of the deposited data

How the results depend on the processing

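No paired analysis was possible because each genotype had 1 array, and for the same reason no replicate could be left out and no slide block fitted. Of the 10 genes at 2-fold, the wild-type count of 3 became 0 with median centring and 1 relative to all genes under it. The AID transgenic count of 4 became 1 with median centring. The count of 0 for the difference became 1 with the scanner's processed signals, where Ppargc1a had -1.04. The other counts stayed within 1.5 times the main count under the alternatives run. A treatment ratio or difference counted as moved if it shifted by more than its technical error. For genotype values the bar was smaller, the median SD between spots (0.09 untreated, 0.06 treated). Of 50 values of the 10 genes over 5 comparisons, median centring moved 18 and its scale relative to all genes also 18, all upward. These were the treatment ratios of every gene but Ppargc1a on both arrays. The scanner's processed signals moved 5, all of Ppargc1a. An offset of 0 moved 3, and the scale of bright genes and the brightest probe 2 each. Of 20 genotype values, quantile normalization moved 2. Without between-array normalization, 19 of these 20 moved, all downward. The scalings relative to all genes and to bright genes were chosen after seeing the data. Among the 10 genes dimness limits Ppargc1a alone, and the number of arrays limits all values.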
